A study of Mus musculus with 12 samples.

Results

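The erythroid and heme genes described here are a module of 37 mouse genes given by symbol, chosen for their place in red cell formation: transcription factors and receptors, heme synthesis, the red cell membrane, terminal enzymes and regulators, and globins. The symbols were matched to the gene identifiers of a count table from 12 spleen RNA-seq libraries, and 36 of the 37 were found among its 53715 identifiers. Ahsp was not analysed here. All 36 passed the filter on low counts and were tested among 18542 genes. The libraries formed 3 groups of 4. Every group carried the genotype BXSB.Cg-Cd8atm1Mak Il15tm1Imx Yaa (named Yaa DKO), which joins targeted alleles of Cd8a and Il15 to Yaa, the Y-linked autoimmune accelerator of lupus-prone BXSB mice. The groups were untreated at 6 weeks, called pre-symptomatic (replicates 1 to 4), untreated at 10 weeks, called symptomatic (replicates 5 to 8), and 10 weeks old with 2DG (replicates 9 to 12). 2DG is 2-deoxyglucose, a glucose analogue that inhibits glycolysis, and was drunk freely in water at 6 g/L. No group without the 2 targeted alleles or without Yaa was compared here, so all values belong to this genotype.

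Red cells form from progenitors under the erythroid factors GATA1 and KLF1 and the hormone erythropoietin. The cells take up iron through the transferrin receptor, make heme in a pathway that starts and ends in mitochondria, fill with globin, rebuild their membrane skeleton and lose the nucleus. In mice the spleen makes red cells alongside the bone marrow and expands this output under stress. Early genes such as Gata1 come before the late genes of heme, membrane and globin, so the order below runs from factors to globins. In RNA from a whole spleen, fewer cells of a type and less RNA per cell cannot be told apart.

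Total counts per library ran from 15596040 to 26079979. Cd8a and Il15 had 582 to 1414 and 82 to 169 counts per library, and counts summed over a gene do not check a disrupted allele. B cell markers were present in every library, at summed levels from 3414 to 6640 CPM (counts per 1000000 counts of a library, after TMM scaling), as in spleen. The untreated 10-week libraries were more unlike each other than the rest. Their biological coefficient of variation was 0.241, where the 6-week libraries had 0.127 and the 2DG libraries 0.114. Replicates 6 and 7 of that group lay at opposite ends for the erythroid genes. Replicate 6 was lowest of the group for 34 of 36 members and replicate 7 highest for 35, so results are given with and without them. The labels do not say that each library came from its own mouse, so p-values measure only the spread between these libraries, which may be technical.

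All 36 genes had higher fitted levels in the 2DG libraries than in either untreated group. Their median log2 difference was 0.96 against untreated spleens of the same age and 1.17 against 6-week spleens, where the medians over all genes tested were 0.01 and -0.0023. Single genes mostly missed the threshold, an edgeR adjusted p under 0.05 over all genes tested. In the first comparison 1 of 36 passed, where 2.16% of all genes were called higher. In the second 0 passed, where 0.0378% of all genes were. Untreated spleens at 10 weeks had a median difference of 0.22 from 6-week spleens, with 0 of 36 past the threshold (0% of all genes called higher). The globin genes alone took 0.598 ± 0.121% of all counts at 6 weeks, 0.637 ± 0.470% untreated at 10 weeks and 1.37 ± 0.369% with 2DG (mean ± SD, n = 4 each, as everywhere below).

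**Figure D1:**
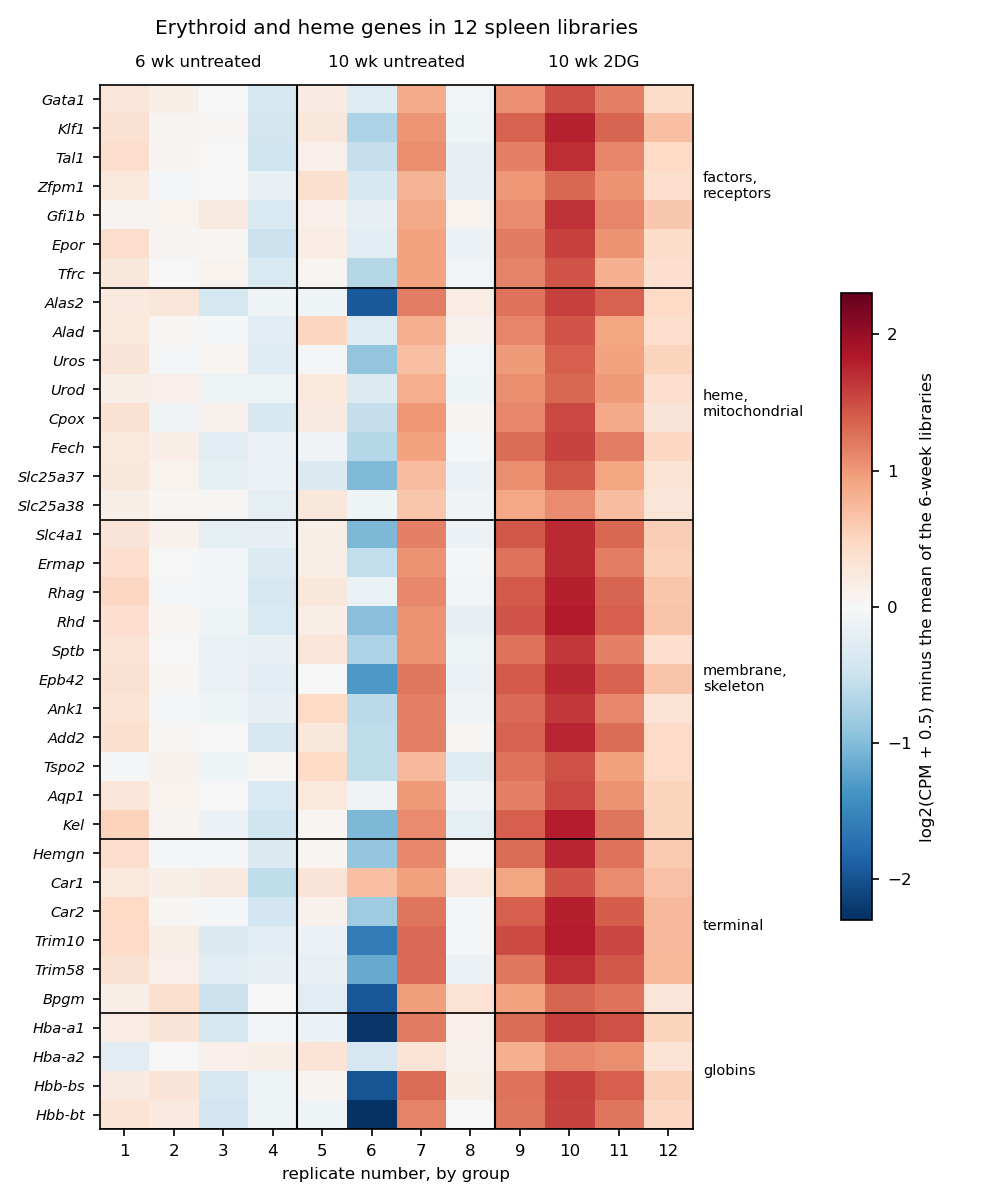
Each row is 1 of 36 members and each column 1 of 12 libraries. Colour gives log2(CPM + 0.5) minus the mean of the 4 libraries at 6 weeks, red for higher and blue for lower. Replicate 10 is the darkest red in all 36 rows, replicate 7 is red among the untreated 10-week libraries, and replicate 6 is darkest blue for Hbb-bt, Hba-a1, Hbb-bs, Bpgm, Alas2 and Trim10.

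The start regions of members were read for the letters that GATA and KLF factors are known to recognise. Members were chosen for their place in red cell formation, and any part of these letters in the levels here was not tested. Each sequence shown is the part of the RefSeq promoter window (build GRCm38.p6) that ends just before the gene's start in GENCODE M21, 5′ to 3′ on the gene's strand, for members of each role group after the factors. The RefSeq start follows directly for Rhd and Trim10 and lies further downstream for the others, 162 bases from the last base shown for Hba-a1, 169 for Hbb-bs, 43 for Alas2 and 15 for Kel. Capitals mark AGATAA or TGATAA, or its reverse complement. The sequences belong to Hba-a1 (chr11:32283422-32283510, plus strand), Hbb-bs (chr7:103828097-103828178, minus), Alas2 (chrX:150547167-150547374, plus), Kel (chr6:41704340-41704575, minus), Rhd (chr4:134864286-134864535, plus) and Trim10 (chr17:36869324-36869573, plus).
Hba-a1: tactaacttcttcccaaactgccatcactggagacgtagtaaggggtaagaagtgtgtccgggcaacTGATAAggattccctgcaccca
Hbb-bs: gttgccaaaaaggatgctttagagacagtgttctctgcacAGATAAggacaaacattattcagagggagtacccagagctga
Alas2: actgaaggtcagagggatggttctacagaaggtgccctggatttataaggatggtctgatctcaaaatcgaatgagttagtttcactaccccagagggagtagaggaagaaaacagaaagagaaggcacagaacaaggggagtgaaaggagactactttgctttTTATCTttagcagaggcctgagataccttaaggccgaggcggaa
Kel: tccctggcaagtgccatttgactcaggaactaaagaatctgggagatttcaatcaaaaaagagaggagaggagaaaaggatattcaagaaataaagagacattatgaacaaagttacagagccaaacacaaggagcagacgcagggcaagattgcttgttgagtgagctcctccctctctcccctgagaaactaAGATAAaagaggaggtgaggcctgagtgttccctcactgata
Rhd: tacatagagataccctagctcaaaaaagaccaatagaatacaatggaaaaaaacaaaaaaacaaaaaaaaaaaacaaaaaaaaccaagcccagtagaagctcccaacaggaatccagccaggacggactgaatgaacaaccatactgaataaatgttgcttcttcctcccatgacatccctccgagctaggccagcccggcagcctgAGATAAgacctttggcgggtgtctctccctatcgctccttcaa
Trim10: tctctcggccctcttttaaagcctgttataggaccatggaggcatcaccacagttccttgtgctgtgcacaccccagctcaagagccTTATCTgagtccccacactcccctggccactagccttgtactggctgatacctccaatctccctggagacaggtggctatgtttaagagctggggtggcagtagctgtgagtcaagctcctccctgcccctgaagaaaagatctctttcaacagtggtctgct
The 6 were chosen because each holds this motif upstream of its GENCODE start, so they do not represent the module. Over the 30 members with a RefSeq window, the 250 bases before the RefSeq start held AGATAA or TGATAA on either strand in 17 (56.7%), against 5092 of 27025 genes (18.8%). CCNCNCCC, the letters bound by KLF factors, was in 18 of 30 (60%) and in 48.5% of all genes. Neither motif can overlap the other, and both were present in 5 members (16.7%) against 5.23% of genes. A match is only a run of letters, and binding was not measured. Fech, Slc25a37, Slc4a1, Ank1, Car1 and Car2 had no window in the table.

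The first comparison set 2DG against untreated spleens at 10 weeks. All 36 members had positive log2 differences, from 0.49 for Car1 to 1.26 for Hba-a2, where 51.8% of all genes were positive. The 1 member past the threshold stood against 2.16% of all genes called higher (401 of 18542) and 7.42% called in either direction. At an unadjusted p under 0.05, 28 members were higher, against 11.7% of all genes. No member had all 4 2DG libraries above all 4 untreated ones, an arrangement that 4.48% of all genes showed. For 31 members exactly 3 untreated libraries lay below every 2DG library, and for the other 5 (Alad, Ank1, Tspo2, Car1 and Bpgm) 2 did. Without untreated replicate 7 the median was 1.34 and 27 members passed (3.70% of all genes called higher). Without replicate 6 the median was 0.73 and 0 passed (edgeR, 15 at an unadjusted p under 0.05), with 3.65% of all genes called higher. Without 2DG replicate 12, the lowest of its group for all 36, 7 members passed (2.54%), and DESeq2 on all libraries called 18 (4.27% of all genes called higher).

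**Figure D2:**
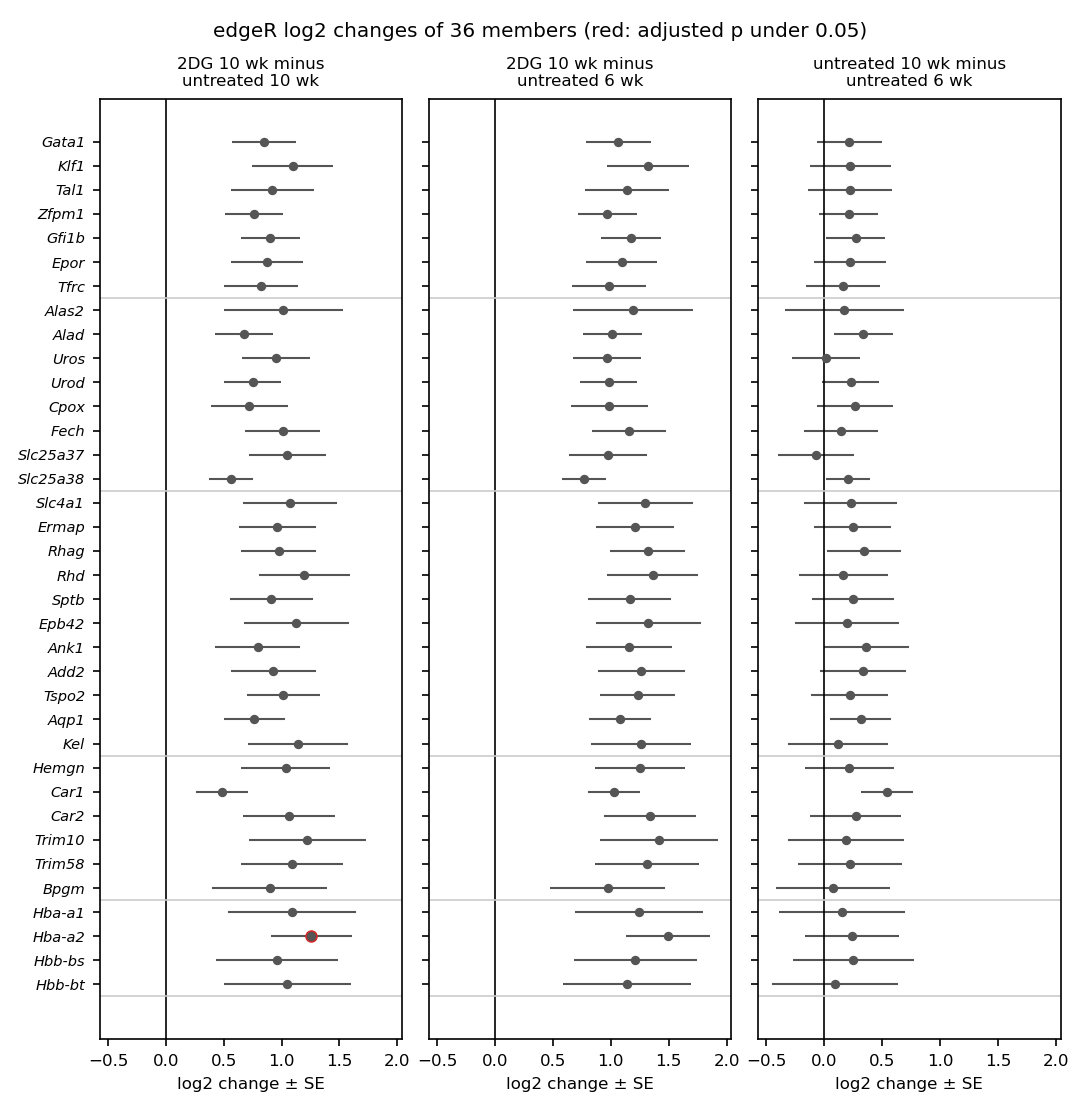
Points are log2 differences from edgeR with SE bars for 36 members in 3 comparisons, grouped by role from factors at the top to globins at the bottom. Differences with 2DG lie between 0.49 and 1.49 in the first 2 panels, the third panel runs from -0.07 to 0.54, and red marks Hba-a2, the member past the threshold.

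Against 6-week spleens the 2DG libraries overlapped less. For 33 of 36 members all 4 2DG libraries lay above all 4 libraries at 6 weeks, an arrangement found in 7.98% of all genes. The exceptions were Cpox, Kel and Bpgm. Log2 differences ran from 0.77 for Slc25a38 to 1.49 for Hba-a2 and all 36 were positive, where 49.5% of all genes were. With edgeR 0 of 36 passed (adjusted p from 0.0854 to 0.364), where 0.0378% of all genes were called higher and 0.129% in either direction. At an unadjusted p under 0.05, 34 members were higher, against 8.75% of all genes. The edgeR fit above, like those with voom and DESeq2, uses all 12 libraries, the variable untreated 10-week ones among them. With only the compared groups 27 members passed (4.43% of all genes called higher), with voom and quality weights 30 (5.06%), and with DESeq2 25 (3.39%). Why these counts differ was not tested. Both comparisons use the same 2DG libraries, so they are not independent of each other.

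With age, from 6 to 10 weeks in untreated spleens, 35 of 36 members had positive differences, as did 51.5% of all genes, but this rested on replicate 7. Without it 5 of 36 were positive and the median was -0.18, and without both replicates 6 and 8 all 36 were and the median was 0.65. With all libraries 0 of 36 passed with edgeR, where 1 gene of all 18542 did, a lower one (0.00539%, 0% higher). DESeq2 called 470 of 18117 genes higher with age (2.59%) and voom 0 of 18542 (0%), and no member passed with either. Car1, carbonic anhydrase 1, was the 1 member at an unadjusted p under 0.05 (log2 difference 0.54, SE 0.22, edgeR adjusted p = 0.250), against 9.26% of all genes higher at that level. In the other roles the smallest p belonged to Gfi1b (0.27, SE 0.26, edgeR adjusted p = 0.631), Alad (0.34, SE 0.25, edgeR adjusted p = 0.536), Aqp1 (0.32, SE 0.26, edgeR adjusted p = 0.582) and Hba-a2 (0.24, SE 0.41, edgeR adjusted p = 0.809). No member had all 10-week libraries above all 6-week libraries, as 3.64% of all genes did.

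Among the 7 factors and receptors the 2DG difference at 10 weeks had a median of 0.87. Past the threshold were 0 of 7, where 2.16% of all genes were called higher. At an unadjusted p under 0.05 were 7, against 11.7% of all genes higher. The members were closely tied across libraries, so counts within a role, here and below, are not independent of each other. Gfi1b (ENSMUSG00000026815.14, chromosome 2, 28609450 to 28621982, minus strand), a repressor that acts with GATA1 in erythroid and megakaryocyte cells, had 21.8, 22.1, 24.1 and 16.2 CPM at 6 weeks. It had 22.7, 18.2, 38.6 and 22.1 CPM in untreated replicates 5 to 8 and 45.0, 66.8, 46.0 and 32.3 CPM in 2DG replicates 9 to 12. Every 2DG library lay above every 6-week library, and above all untreated 10-week libraries but replicate 7, which exceeded 2DG replicate 12. Its log2 difference was 0.90 with SE 0.25 (edgeR adjusted p = 0.0540) at 10 weeks and 1.17 with SE 0.26 (edgeR adjusted p = 0.0854) against 6 weeks.

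Klf1, the factor that switches on adult beta globin and many late red cell genes, had 31.0 to 52.9 CPM at 6 weeks. In untreated replicates 5 to 8 it had 49.8, 25.2, 84.9 and 38.6 CPM, and with 2DG 107, 144, 107 and 67.3 CPM. The gap between untreated replicates 6 and 7 was of similar size to that between the 6-week and 2DG means (42.4 ± 8.98, 49.6 ± 25.6 and 106 ± 31.3 CPM in the 3 groups). The 2DG difference at 10 weeks was 1.10 with SE 0.35 (edgeR adjusted p = 0.0853). Gata1, the master erythroid factor, had 33.0 ± 6.35 CPM at 6 weeks, 38.4 ± 14.7 untreated at 10 weeks and 69.2 ± 19.98 with 2DG (log2 difference at 10 weeks 0.85, SE 0.28, edgeR adjusted p = 0.0887). Zfpm1, which encodes FOG1, the partner of GATA1, had a difference of 0.97 against 6 weeks (SE 0.25, edgeR adjusted p = 0.106). Tal1, a basic helix-loop-helix factor of blood formation, Epor, the erythropoietin receptor, and Tfrc, the transferrin receptor, had differences of 0.92, 0.87 and 0.82 at 10 weeks.

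**Figure D3:**
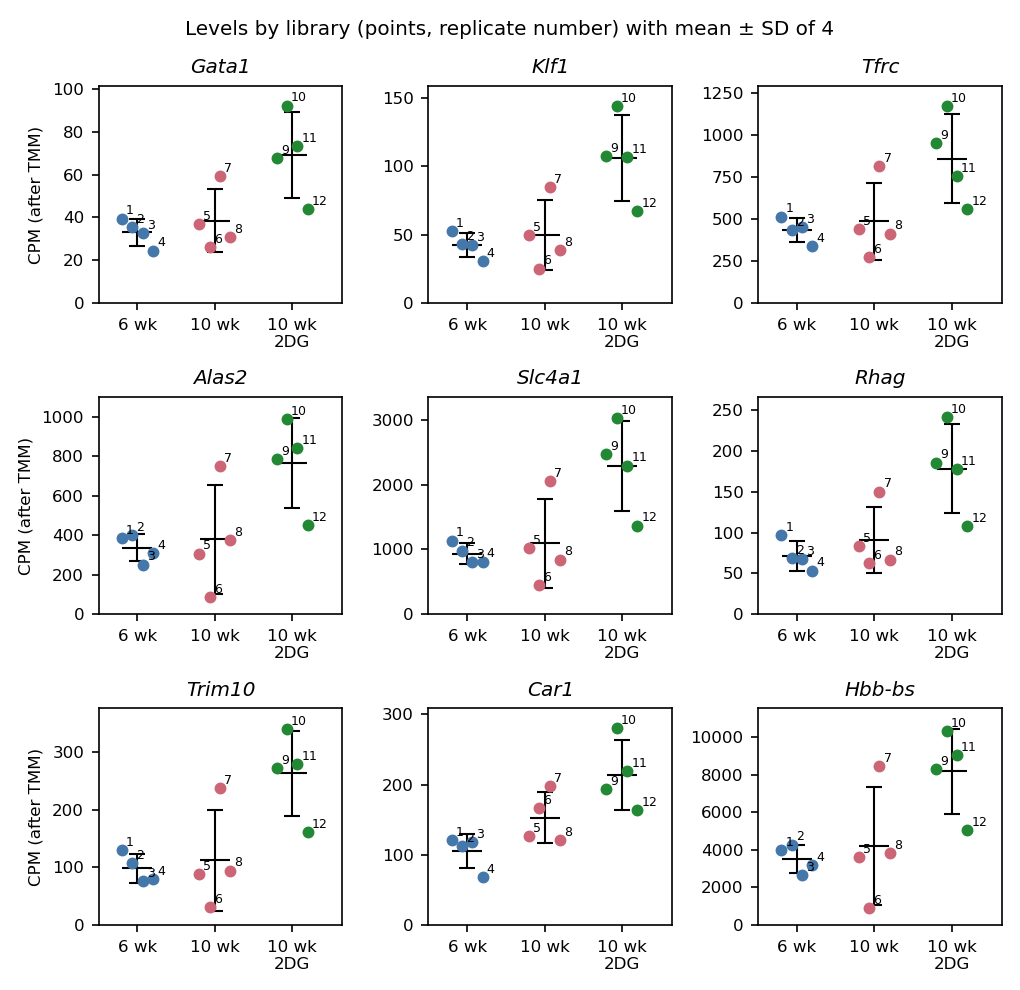
CPM of 9 members in each library, by group, with the replicate number beside each point, and the mean (long bar) ± SD of 4. The points of 2DG lie above those of 6 weeks in all 9 panels, untreated replicate 7 reaches into the 2DG range, and untreated replicate 6 is lowest of its group in each panel but that of Car1.

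The 8 genes of heme synthesis and its mitochondrial carriers had a median 2DG difference of 0.85 at 10 weeks. Of them 0 were past the threshold (2.16% of all genes called higher) and 6 at an unadjusted p under 0.05 (11.7% of all genes higher). Alas2 (ENSMUSG00000025270.13, chromosome X, 150547375 to 150570638, plus strand), the erythroid enzyme for the first step of heme synthesis, was the most variable of them in untreated spleens at 10 weeks (coefficient of variation 0.726), though not in the other groups, where Cpox exceeded it. It had 385, 399, 251 and 310 CPM at 6 weeks, 307, 86.8, 749 and 374 CPM untreated at 10 weeks, and 784, 987, 844 and 452 CPM with 2DG. The untreated 10-week libraries ran from below every other library into the 2DG range, and the difference of 1.02 had an SE of 0.52 (edgeR adjusted p = 0.263). Its exons share 12.9% of their bases with Apex2 on the opposite strand, which had 251 to 550 counts per library against 1848 to 23582 for Alas2.

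Uros, Fech and Slc25a37 had the smallest p of the group for 2DG at 10 weeks. Uros, which closes the uroporphyrinogen ring, had 50.3 ± 8.51, 50.9 ± 22.3 and 98.4 ± 24.1 CPM in the 3 groups, with a 2DG difference of 0.95 at 10 weeks (SE 0.29, edgeR adjusted p = 0.0759). Fech, ferrochelatase, which inserts the iron, had 238 ± 38.4, 263 ± 130 and 530 ± 151 CPM, a difference of 1.01 (SE 0.32, edgeR adjusted p = 0.0842). Slc25a37, or mitoferrin 1, which brings iron into the mitochondrion, had 677 ± 102, 643 ± 324 and 1331 ± 403 CPM, a difference of 1.05 (SE 0.33, edgeR adjusted p = 0.0842). It was the 1 member with a negative difference with age, -0.07, which was positive without replicate 6 (0.15). Against 6 weeks, Slc25a38, the mitochondrial glycine carrier, differed by 0.77 (SE 0.19, edgeR adjusted p = 0.0956) and Urod, uroporphyrinogen decarboxylase, by 0.98 (SE 0.25, edgeR adjusted p = 0.0993). Alad and Cpox, an early and a late enzyme of the pathway, had differences of 0.68 and 0.72 at 10 weeks.

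The 11 membrane and skeleton genes had a median 2DG difference of 0.97 at 10 weeks. Of them 0 were past the threshold (2.16% of all genes called higher) and 10 at an unadjusted p under 0.05 (11.7% of all genes higher). Slc4a1 (ENSMUSG00000006574.15, chromosome 11, 102348824 to 102366203, minus strand), which encodes band 3, the anion exchanger and main integral protein of the red cell membrane, had 1138, 982, 798 and 812 CPM at 6 weeks. It had 1019, 451, 2061 and 842 CPM untreated at 10 weeks and 2471, 3039, 2299 and 1370 CPM with 2DG. Replicate 7 alone of the untreated libraries exceeded a 2DG library. The difference at 10 weeks was 1.07 (SE 0.41, edgeR adjusted p = 0.137).

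Rhd and Rhag encode the Rh antigen protein and its associated glycoprotein, which form a complex in the membrane. Rhd had 79.7 ± 17.1, 89.3 ± 52.0 and 205 ± 62.7 CPM (log2 difference at 10 weeks 1.20, SE 0.39, edgeR adjusted p = 0.0916). Rhag had 71.5 ± 18.6, 90.9 ± 40.6 and 179 ± 54.7 CPM (0.97, SE 0.32, edgeR adjusted p = 0.0924), and 1.32 against 6 weeks (SE 0.32, edgeR adjusted p = 0.0993). Tspo2, an erythroid relative of the translocator protein, was scarce at 2.23 ± 0.159, 2.60 ± 1.29 and 5.25 ± 1.65 CPM (1.01, SE 0.32, edgeR adjusted p = 0.0709). Aqp1, the water channel, differed by 1.08 against 6 weeks (SE 0.27, edgeR adjusted p = 0.0986). The skeleton genes Sptb (beta spectrin), Ank1 (ankyrin), Add2 (beta adducin) and Epb42 (protein 4.2) had differences of 0.91, 0.79, 0.93 and 1.13 at 10 weeks, and the surface proteins Kel and Ermap, both blood group antigens, of 1.14 and 0.96.

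The 6 terminal enzymes and regulators had a median of 1.05 at 10 weeks. Of them 0 were past the threshold (2.16% of all genes called higher) and 4 at an unadjusted p under 0.05 (11.7% of all genes higher). Car2, carbonic anhydrase 2, had 619 ± 159, 747 ± 462 and 1565 ± 438 CPM (log2 difference at 10 weeks 1.07, SE 0.40, edgeR adjusted p = 0.131), and 1.34 against 6 weeks (SE 0.40, edgeR adjusted p = 0.135). Hemgn, a nuclear protein of blood precursors, had 149 ± 32.4, 174 ± 102 and 356 ± 112 CPM (1.04, SE 0.39, edgeR adjusted p = 0.132). Trim58, a ubiquitin ligase of late erythroblasts, had 14.5 ± 2.98, 16.8 ± 13.0 and 36.0 ± 9.33 CPM (1.09, SE 0.44, edgeR adjusted p = 0.161). Trim10, a further TRIM protein of erythroid cells, had a difference of 1.22. Bpgm, which makes the 2,3-bisphosphoglycerate that loosens oxygen from hemoglobin, had 0.90, with 43.7 CPM in untreated replicate 6 and 330 CPM in replicate 7.

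Car1 (ENSMUSG00000027556.15, chromosome 3, 14766216 to 14808368, minus strand) followed the others least closely. Pearson's r of its log2 CPM with the mean of the other members was 0.728 over the 12 libraries and 0.940 without untreated replicate 6. Car1 had 121, 112, 119 and 68.7 CPM at 6 weeks, 126, 167, 198 and 121 CPM untreated at 10 weeks, and 194, 281, 219 and 164 CPM with 2DG. Replicate 6, in which nearly all members were low, was above every 6-week library for Car1, and 6-week replicate 4 stood below the rest of its group. The 2DG difference was the smallest of the module at 10 weeks (0.49, SE 0.22, edgeR adjusted p = 0.207) and 1.03 against 6 weeks (SE 0.23, edgeR adjusted p = 0.0854).

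The 4 adult globins had a median 2DG difference of 1.07 at 10 weeks, with 1 past the threshold (2.16% of all genes called higher). Hbb-bs (ENSMUSG00000052305.6, chromosome 7, 103826534 to 103828096, minus strand), the beta globin with most counts, had 4006, 4282, 2660 and 3192 CPM at 6 weeks. It had 3614, 880, 8486 and 3838 CPM untreated at 10 weeks and 8288, 10347, 9035 and 5058 CPM with 2DG. Replicate 7 lay within the 2DG range, replicates 5 and 8 within the 6-week range, and replicate 6 below all other libraries. The difference at 10 weeks was 0.96 (SE 0.53, edgeR adjusted p = 0.303) and against 6 weeks 1.21 (SE 0.53, edgeR adjusted p = 0.287). Its neighbour Hbb-bt had 1043 ± 237, 1112 ± 848 and 2301 ± 652 CPM (1.05 at 10 weeks, SE 0.55, edgeR adjusted p = 0.280), and the alpha globin Hba-a1 1267 ± 255, 1408 ± 1084 and 2999 ± 869 CPM (1.09, SE 0.55, edgeR adjusted p = 0.263).

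Hba-a2 (ENSMUSG00000069917.7, chromosome 11, 32296489 to 32297298, plus strand) rose with 2DG at 10 weeks (log2 difference 1.26, SE 0.35, edgeR adjusted p = 0.0456), from 0.475 ± 0.205 to 1.14 ± 0.380 CPM. Against 6 weeks, at 0.408 ± 0.104 CPM, the difference was 1.49 (SE 0.36, edgeR adjusted p = 0.0903). Its libraries held 0.626, 0.188, 0.619 and 0.469 CPM untreated and 1.09, 1.46, 1.39 and 0.625 CPM with 2DG, so the lowest 2DG library was level with the highest untreated ones. It had only 4 to 35 counts per library. Its closest transcript to Hba-a1 shared 537 of 538 aligned bases (99.8%), and the upstream bases of the pair were identical over the 247 aligned, so the split of reads between the copies is uncertain. The call was lost in 14 of 20 alternatives, among them the fits without any 1 library other than untreated replicate 7 and 2DG replicate 12 (edgeR adjusted p from 0.0255 to 0.143 over all fits with a library left out). Hbb-bs and Hbb-bt are less alike, with 582 of 625 aligned bases identical (93.1%).

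Per kilobase of exon, Hbb-bs, Hba-a1 and Hbb-bt stood far above the other members, while the value for the globin Hba-a2 was among the lowest. The split of reads between Hba-a2 and its near-identical copy Hba-a1 is uncertain, so this low value may not be its level. With 2DG the mean levels per kilobase were 10654 ± 2930 CPM for Hbb-bs, 3694 ± 1070 for Hba-a1, 3273 ± 927 for Hbb-bt, 646 ± 181 for Car2, 469 ± 142 for Slc4a1 and 319 ± 94.3 for Alas2. Hba-a1 and Hbb-bt differed by less than either SD, and so did Hba-a2 and Tspo2, the lowest of the module. The order of these 6 was the same in both untreated groups, with Hbb-bs at 4603 ± 970 at 6 weeks and 5475 ± 4108 at 10 weeks. Tspo2 and Hba-a2 stood at 1.63 ± 0.512 and 1.71 ± 0.570 with 2DG.

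The untreated 10-week libraries held the widest spread within a group. Coefficients of variation between their 4 libraries ran from 0.239 for Car1 to 0.779 for Trim10, against 0.0712 to 0.295 at 6 weeks and 0.227 to 0.346 with 2DG. Relative to the mean of the 6-week libraries, the median log2 deviation of the members was 0.14 in replicate 5, -0.65 in replicate 6, 1.03 in replicate 7 and -0.06 in replicate 8. The 2DG libraries had 1.24, 1.58, 1.17 and 0.48 in replicates 9 to 12. Replicate 7 thus lay between the lowest 2DG library and the other 3, and replicate 10 was the highest of all 12 libraries for 36 of 36 members.

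**Figure D4:**
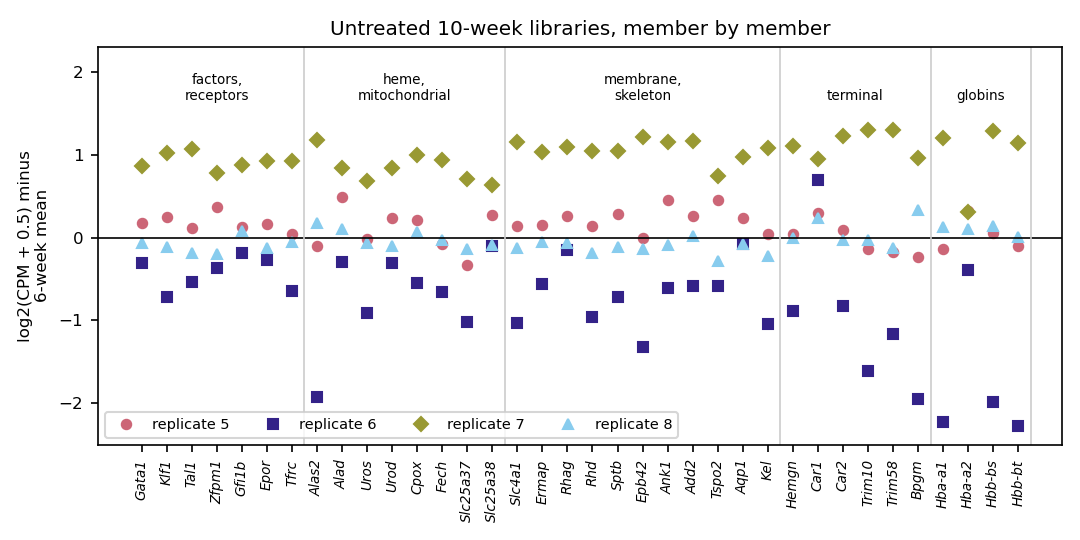
Each untreated 10-week library is shown for 36 members in role order as log2(CPM + 0.5) minus the mean at 6 weeks. Replicate 7 (diamonds) is above 0 throughout, and replicates 5 and 8 lie between -0.33 and 0.49. Replicate 6 (squares) runs from -0.07 for Aqp1 to -2.28 for Hbb-bt, with no steady fall along the order, and only Car1 is above 0, at 0.70. Gata1 is at -0.30 and Hba-a2 at -0.39 in replicate 6. Hba-a2 is below 0.5 CPM in replicate 6 and in the 6-week mean, so the added 0.5 shrinks its value.

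The deficit of replicate 6 was graded by role. The median deviation was -0.37 for the factors and receptors, -0.60 for heme synthesis, -0.61 for the membrane, -1.02 for terminal genes and -2.11 for globins. Single genes departed from this within roles. Alas2 was at -1.92, Bpgm at -1.94 and Trim10 at -1.61, while Aqp1 was at -0.07, Rhag at -0.15 and Car1 at 0.70. The globin Hba-a2 was at -0.39, but it had only 0.188 CPM in replicate 6 and a mean of 0.408 CPM at 6 weeks. The 0.5 CPM added before the log exceeds both values and shrinks its deviation. Replicate 7 was even by comparison, with role medians from 0.84 for heme synthesis to 1.17 for globins. Globins took 0.132% of the counts of replicate 6 (95% Wilson interval 0.130 to 0.133%, counting error only) and 1.27% of those of replicate 7. Replicate 6 also had the highest summed levels of splenic macrophage markers (5161 CPM, against 2068 to 3454 in the other 11 libraries). It was likewise highest for markers of neutrophils and their precursors (4568 against 524 to 3067) and of mast cells and basophils (99.7 against 34.5 to 79.8). It had the lowest of B cell markers (3414) and cell cycle genes (2058). Their part in the erythroid values was not tested.

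Ratios of counts within a library show how late and early genes moved against each other. Per count of Klf1 there were 62.8 to 103 counts of Hbb-bs at 6 weeks and 71.9 to 84.8 with 2DG. Untreated 10-week replicates 5, 7 and 8 had 72.6 to 99.9, and replicate 6 had 35.0. Slc4a1 per Klf1 was 22.3 ± 3.04, 21.1 ± 2.66 and 21.5 ± 1.10 in the 3 groups, so these 2 genes kept nearly the same proportion. Car1 per Klf1 was 6.63 in replicate 6 and 1.80 to 3.12 in the other 11 libraries. Gata1 per Klf1 was 0.630 to 0.687 with 2DG, below the 6-week range of 0.745 to 0.823 and the untreated 10-week range of 0.700 to 1.04. Epor per Klf1 was likewise 0.435 to 0.486 with 2DG, 0.509 to 0.562 at 6 weeks and 0.506 to 0.739 untreated at 10 weeks. These ratios were chosen after the values were seen and carry no test.

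**Figure D5:**
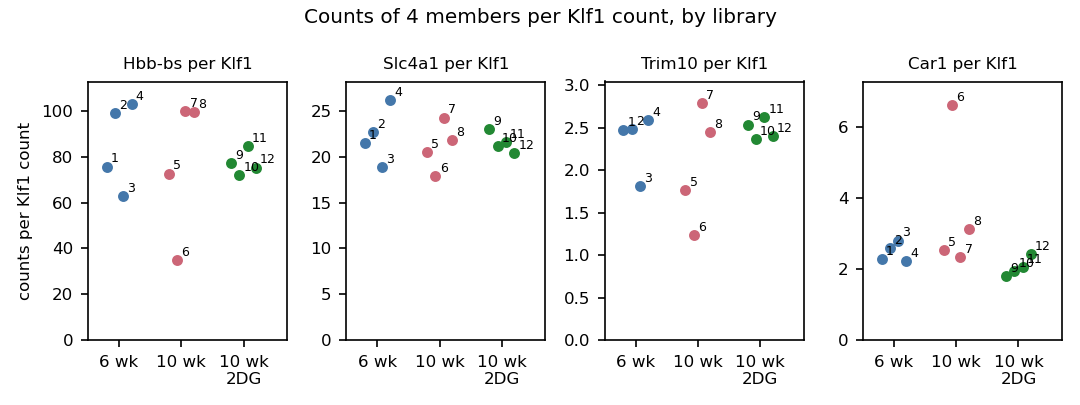
Counts of Hbb-bs, Slc4a1, Trim10 and Car1 per count of Klf1 in each library, with replicate numbers, by group. Replicate 6 is lowest for Hbb-bs (35.0) and Trim10 (1.24) and highest for Car1 (6.63), and the 4 libraries of 2DG lie close together.

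The members were closely tied across libraries. Pearson's r between each member's log2 CPM and the mean of the other members over the 12 libraries, which share the group differences, had a median of 0.978, and 33 of 36 exceeded 0.9. The lowest were Car1 (0.728, or 0.940 without replicate 6), Hba-a2 (0.875) and Bpgm (0.893). Outside the module and the other erythroid lists, the 10 genes most like its mean among 12506 candidates had r from 0.994 to 0.996. They were Dnajb2, Slc43a1, Dhrs11, Slc16a1, Pdzk1ip1, Redrum, Pigq, Hagh, Fhdc1 and Ranbp10. Slc43a1, an amino acid transporter, had 75.6 ± 15.1, 82.7 ± 48.9 and 179 ± 50.5 CPM in the 3 groups, and Slc16a1, a monocarboxylate transporter, 191 ± 15.3, 196 ± 62.7 and 306 ± 58.9 CPM. None of the 10 passed the threshold in any comparison.

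Other genes of the same pathways were counted from lists. Of 18 further heme and iron genes 14 had positive 2DG differences at 10 weeks, with a median of 0.38 and 2 past the threshold, both higher. Among all genes 2.16% were called higher in this comparison. Ppox, protoporphyrinogen oxidase, rose from 89.2 ± 28.0 to 161 ± 34.4 CPM (log2 difference 0.85, edgeR adjusted p = 0.0313), and Iscu, the scaffold for iron-sulfur clusters, from 23.3 ± 2.44 to 30.4 ± 2.41 CPM (0.38, edgeR adjusted p = 0.0270). Of 21 further membrane and terminal genes all had positive differences, with a median of 0.80, and 1 passed: Cat, catalase, rose from 164 ± 43.5 to 246 ± 27.9 CPM (0.58, edgeR adjusted p = 0.0433). The call of Ppox was lost in 9, that of Iscu in 7 and that of Cat in 13 of 22 alternatives, with edgeR or voom adjusted p up to 0.129. Against 6 weeks 11 of the 18 and 19 of the 21 had all 2DG libraries above all 6-week libraries, as did 7.98% of all genes. In 2 of the 18 and 0 of the 21 all 2DG libraries lay below, as in 7.69% of all genes.

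Of 13 further transcription factors 11 were positive at 10 weeks, with a median of 0.24. Lmo2, the bridging protein of the complex that holds TAL1 and GATA1, rose from 147 ± 23.0 to 239 ± 33.1 CPM (log2 difference 0.70, SE 0.12, edgeR adjusted p = 0.00444). Its 2DG libraries (197 to 277 CPM) lay above all untreated ones of both ages (117 to 173 CPM), and it passed in all 22 alternatives. Among 13 progenitor and stress erythropoiesis genes 7 were positive, with a median of 0.08. Podxl, a sialomucin of blood progenitors and vessels, rose from 13.6 ± 1.93 to 21.9 ± 3.71 CPM (0.69, edgeR adjusted p = 0.0102), and Pim1, a kinase induced by cytokines, fell from 124 ± 24.6 to 81.5 ± 8.45 CPM (-0.61, edgeR adjusted p = 0.0138). The call of Pim1 was lost without 2DG replicate 11 and with only the compared groups (edgeR adjusted p up to 0.0542). Of 12 genes of organelle clearance and enucleation 11 were positive, with a median of 0.40, and 1, Cited2, a transcriptional coregulator, fell from 56.1 ± 9.96 to 41.2 ± 3.61 CPM (-0.44, edgeR adjusted p = 0.0355). Its call was lost in 8 of 22 alternatives (edgeR adjusted p up to 0.144).

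Several factors of the module also act in megakaryocytes, the platelet precursors, whose markers followed another course. All 15 had positive 2DG differences at 10 weeks, with a median of 0.62, and Vwf, von Willebrand factor, rose from 41.0 ± 9.49 to 75.9 ± 22.5 CPM (log2 difference 0.89, edgeR adjusted p = 0.0455), a call lost in 14 of 22 alternatives. Against 6 weeks 5 of 15 were positive and the median was -0.10, where the erythroid members had 1.17. With age 1 of 15 was positive, with a median of -0.69. Their summed level was 643 to 1026 CPM at 6 weeks, 393 to 647 untreated at 10 weeks and 516 to 988 with 2DG. The difference between the 2 sets of genes was not tested.

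Plasma cell markers moved the opposite way. Their summed level was 3750 to 6768 CPM in untreated spleens at 10 weeks and 1693 to 2600 CPM with 2DG. All 9 had negative differences and 8 passed the threshold with edgeR, where 5.26% of all genes were called lower. Immunoglobulin genes took 8.75 ± 2.53% and 2.49 ± 0.571% of counts. With immunoglobulin genes removed the median difference of the erythroid members was 0.96, as with them. This refit does not test whether plasma cells bear on the erythroid values. Of 18 cell cycle genes 17 were positive at 10 weeks, with a median of 0.22, and 0 passed with edgeR. Their part in the erythroid values was not tested.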

How the data were processed

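Per the labels' protocols, poly(A) RNA from spleen was made into libraries that keep no strand information. The deposited values are counts, whole numbers for each gene in 12 libraries, that the authors did not normalize. The submitters' processing notes list Bowtie2 2.2.0, RSEM 1.2.12 and GRCm38 with no roles, and no source states how reads common to near-identical genes were assigned. Of 53715 identifiers 53620 matched GENCODE M21. The remaining 95 held no more than 0.0158% of the counts in any library. Exons of 6 members (Alas2, Cpox, Slc25a37, Sptb, Ank1 and Add2) overlap a gene on the opposite strand, so their reads cannot be fully assigned.

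Counts were fitted with edgeR 4.0.16 in R 4.3.3 (TMM, filterByExpr by group, robust quasi-likelihood, all 12 libraries), with Benjamini-Hochberg adjustment over 18542 genes and a threshold of 0.05. A log2 difference is the fitted value, and SE is its size divided by the square root of F. CPM are counts per 1000000 counts of a library, scaled by TMM. The fit was tested on simulated data with the same spread in every group. The real groups differ in spread, so that test does not bear on this. Alternatives were DESeq2 1.42.0, limma 3.58.1 voom with quality weights, other size factors and filters, immunoglobulin or globin genes removed, only the compared groups, and libraries left out. Within-group pairs of libraries differed by a chi-square of 10.5 to 85.2 per gene, so none agreed within sampling noise.

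The members and the 15 other lists were chosen with earlier results of these data known. Full statistics go to members past the threshold and, per role, those with the smallest p (3 for 2DG at 10 weeks, 2 against 6 weeks, 1 with age). List genes are named where past the threshold. Alas2, Slc4a1, Trim10, Bpgm, Car1 and Hbb-bs are given further values chosen after they were seen. Some list calls, of macrophage, plasma cell and stromal genes, are not named. Promoter windows came from RefSeq on GRCm38.p6. Levels per kilobase use the union of annotated exons. Intervals cover counting error only.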

Additional observations from a re-analysis of the deposited data

Results flagged for a closer look

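Car1 in untreated 6-week replicate 4 stood apart from its group, at 68.7 CPM against 112 to 121 CPM in the other 3 libraries. It was flagged because its gap to the nearest library took up most of the group's range. Of 111 groups of 4 values checked this was 1, and chance flags about 1 in 20 groups. The same library was the lowest of its group for 24 of 36 members.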

How the results depend on the processing

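The median difference of the members stayed positive in every alternative for 2DG at 10 weeks (0.53 without both untreated replicates 6 and 8, and 0.73 to 1.34 with each library left out) and against 6 weeks (1.00 to 1.36 with each library left out). With age, 0.22 with all libraries, it ran from -0.18 to 0.45 with each library left out, and was 0.65 without both replicates 6 and 8 and 0.04 without both 6 and 7. The difference in globin share was 0.73 points for 2DG at 10 weeks (0.563 to 0.941 with a library left out), 0.77 against 6 weeks (0.656 to 0.942) and 0.039 with age (-0.170 to 0.208).

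Counts of calls depended on the processing, and the cause was not tested. Percentages in brackets are shares of all genes called higher in the same fit. Members past the threshold for 2DG at 10 weeks, 1 with all libraries (2.16%), were 0 to 27 with each library left out. The 27 came without untreated replicate 7 (3.7%). They were 18 with DESeq2 (4.27%) and 16 without both untreated replicates 6 and 7 (3.94%), an alternative chosen after seeing the data. They were 0 with only the compared groups (0.414%), voom (2%), or without both replicates 6 and 8 (7.4%). With globin genes removed it was 0 of the 32 members left (2.02%), with a smallest edgeR adjusted p of 0.0545. The 1 member called with all genes is a globin and was not among them. Against 6 weeks, 0 members (0.0378%) became 0 to 15 with each library left out, the 15 without untreated replicate 7 (1.44%). They became 25 with DESeq2 (3.39%), 27 with only the compared groups (4.43%) and 30 with voom (5.06%). Without replicates 6 and 7 they were 30 (2.93%), and without replicates 6 and 8 they were 8 (2.17%). With age it was 0 in all alternatives. Over all genes, the 1376 calls for 2DG at 10 weeks became 514 to 2209 with each library left out, 2304 with DESeq2, 581 with only the compared groups and 3193 without replicates 6 and 8. The 24 against 6 weeks became 1 to 354 with each library left out, 902 with DESeq2, 98 with no filter, 1367 with only the compared groups, 1644 with voom, 820 without replicates 6 and 7 and 758 without replicates 6 and 8. The 1 call with age became 0 to 1563 with each library left out (1563 without replicate 8), 682 with DESeq2, 102 with no filter, 0 with only the compared groups and 2303 without replicates 6 and 8.

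No 2DG difference printed for a member changed sign in any alternative. With age that of Gfi1b went from 0.27 to -0.0012 without replicate 7 (0.41 at most with each library left out). That of Slc25a37 went from -0.07 to 0.28 without both replicates 6 and 8 and 0.10 with voom (-0.46 to 0.15 with each library left out, positive without replicate 1, 5 or 6). No paired analysis was possible because replicate numbers run from 1 to 12 across the groups and no number is shared. Depth limits only Hba-a2 and Tspo2 among the members, with 4 to 35 and 28 to 168 counts per library.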

Other observations

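The embryonic globins stayed near the limit of detection in these spleens. Hba-x had 0 to 3 counts per library, Hbb-y 0 to 11, Hbb-bh2 and Hbb-bh0 0 or 1, and Hbb-bh1 0 to 16. Hbb-bh1, the only one tested, had 9 to 14 counts at 6 weeks, 4, 0, 5 and 6 in untreated replicates 5 to 8, and 16, 14, 6 and 5 in 2DG replicates 9 to 12. All 4 untreated 10-week libraries lay below those of 6 weeks in CPM (edgeR adjusted p = 0.158), while Hbb-bs of replicate 7 was more than any 6-week library held.

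Among heme genes outside the module, Alas1, the housekeeping counterpart of Alas2, had 48.1 ± 1.43 CPM at 6 weeks, 53.7 ± 9.54 untreated at 10 weeks and 41.6 ± 3.47 with 2DG (edgeR adjusted p = 0.0529 for 2DG at 10 weeks), a negative difference of -0.37 where Alas2 had 1.02. Flvcr1, a heme exporter, likewise had -0.34 (edgeR adjusted p = 0.0765), and Abcb10, a mitochondrial transporter of erythroid cells, 0.92 (edgeR adjusted p = 0.0549). Hmox1, heme oxygenase 1, had 340 ± 120, 415 ± 162 and 493 ± 29.9 CPM (edgeR adjusted p = 0.637 for 2DG at 10 weeks). The rule for named genes did not pick these 4, which were singled out with their values in view.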
